A study of Mus musculus with 8 samples.

Results

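The genes described here control the step at which pyruvate, the end product of glycolysis, enters the mitochondrion and becomes acetyl-CoA. They were 10 genes chosen by name: the pyruvate dehydrogenase kinases Pdk1, Pdk2, Pdk3 and Pdk4, the subunit genes Pdha1 and Pdhb of the dehydrogenase, the phosphatase genes Pdp1 and Pdp2, and the mitochondrial pyruvate carrier genes Mpc1 and Mpc2. All probe sets that the platform annotation assigns to one of these genes alone were taken, which gave 15 of the 45101 probe sets in the deposited table and 9 of the 18193 genes that the annotation names. A probe set is a group of short probes that together give 1 signal for a transcript. These 15 covered 9 of the 10 genes, since the annotation used here names no probe set for Mpc2.

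The cells were mouse embryonic fibroblasts immortalized with the large T antigen, a viral oncoprotein that inactivates p53 and the retinoblastoma protein. There were 4 groups of 2 arrays, all grown at 21% oxygen. One group was wild type, another lacked FIH (FIH null), another lacked VHL (VHL null), and the last lacked both (VHL/FIH null, here double null). Floxed alleles of FIH, VHL or both had been deleted by Cre from an adenovirus. The design text derives every null group from a separate floxed line, and an effect of the line cannot be told apart from that of the genotype. The labels do not give the age or sex of the embryos, nor say whether the wild type cells received the virus. FIH, encoded by Hif1an, hydroxylates an asparagine of the hypoxia-inducible factor (HIF) alpha subunits and so limits their transcriptional activity. VHL is the substrate receptor of a ubiquitin ligase that marks hydroxylated HIF alpha for destruction. The comparisons ask how loss of each protein, and of both, changes the transcripts of the cell.

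The pyruvate dehydrogenase complex joins the decarboxylation of pyruvate to the formation of acetyl-CoA. Its kinases inactivate it by phosphorylating the alpha subunit that Pdha1 encodes, and its phosphatases restore activity by removing those phosphates. Pdk1 is a long-known HIF target, and its kinase diverts pyruvate toward lactate in hypoxic cells. Pdk4 is best known as the kinase gene induced by fasting, fatty acids and glucocorticoids.

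Because HIF binds DNA at a short core, the sequence before the start of the 4 members with the smallest adjusted p in VHL null against wild type cells is shown for orientation, with each match to that core in capitals. The windows run from 250 bases before to 10 bases after the RefSeq gene start in GRCm38.p6. They are chr2:71872974-71873233 (plus strand) for Pdk1, chrX:93832141-93832400 (minus strand) for Pdk3, chr6:5496269-5496528 (minus strand) for Pdk4 and chr8:104591222-104591481 (plus strand) for Pdp2, each read 5′ to 3′ along the gene.
Pdk1: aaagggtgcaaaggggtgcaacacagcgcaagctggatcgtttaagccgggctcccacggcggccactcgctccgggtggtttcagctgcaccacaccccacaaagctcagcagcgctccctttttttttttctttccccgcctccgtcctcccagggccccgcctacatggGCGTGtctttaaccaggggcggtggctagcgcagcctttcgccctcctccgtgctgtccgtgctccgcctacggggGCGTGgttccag
Pdk3: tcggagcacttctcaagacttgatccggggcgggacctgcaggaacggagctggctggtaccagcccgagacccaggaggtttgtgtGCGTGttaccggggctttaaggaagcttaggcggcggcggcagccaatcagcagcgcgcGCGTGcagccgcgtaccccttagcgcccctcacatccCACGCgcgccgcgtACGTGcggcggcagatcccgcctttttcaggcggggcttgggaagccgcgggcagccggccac
Pdk4: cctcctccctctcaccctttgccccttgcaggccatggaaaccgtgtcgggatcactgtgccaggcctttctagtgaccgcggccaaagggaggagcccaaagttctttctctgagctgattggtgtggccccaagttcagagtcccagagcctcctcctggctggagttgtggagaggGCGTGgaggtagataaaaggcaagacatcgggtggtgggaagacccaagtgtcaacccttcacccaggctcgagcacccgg
Pdp2: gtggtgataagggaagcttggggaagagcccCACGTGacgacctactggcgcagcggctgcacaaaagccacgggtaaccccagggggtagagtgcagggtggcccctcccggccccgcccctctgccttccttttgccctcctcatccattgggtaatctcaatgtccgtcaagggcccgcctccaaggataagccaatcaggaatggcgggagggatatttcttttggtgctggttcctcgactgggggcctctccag
The letters searched were ACGTG and GCGTG on either strand, so that a reverse match reads CACGT or CACGC. In Pdp2 the capitals are a single CACGTG, which holds ACGTG on both strands. Pdk1 had GCGTG beginning 78 and 2 bases before the start shown. The promoter table also gives Pdk1 another start, and its window (chr2:71874654-71874913) held 0 matches. Pdk3 had 4 separate matches, which began 163, 104, 67 and 53 bases before the start. Pdk4 had 1 match, 71 bases before the start. Of the 10 genes 9 had an entry in the promoter table, and 9 of their 12 windows held a match. Of all 32851 windows of this length in that file, 39.7% held a match and 14.4% held at least 2, so that a match is common and is given only as a description.

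Signals are MAS5 values on a linear scale, given per array or as the group's mean ± SD (n = 2). Changes are differences between group means of log2(signal + 16) from limma fitted on all 8 arrays, with p-values adjusted over 24523 tested probe sets. The test took in probe sets that read over 291.1 (the median signal, called the cutoff here) on 2 or more arrays. A change is said to pass when its adjusted p is under 0.05. Of the 15 probe sets 14 were tested, and the 1 left out was a weak Pdk1 probe set. Signals of different probe sets are not comparable in level, so only groups are compared. Every deposited array had the same trimmed mean, so that a change is relative to the array's mean level.

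Over all probe sets, r was 0.968 to 0.971 between the 2 arrays of a group and 0.954 to 0.969 between arrays of different groups. The spiked hybridization controls read higher than on the wild type arrays on the log2 scale, by 0.52 in the double null, 0.38 in the VHL null and 0.26 in the FIH null group. Scaling to them lowers every change against wild type by those amounts, and the calls described below that this ends are named. With that scaling further falls passed, by each gene's brightest probe set. In FIH null against wild type cells they were Pdha1 (-0.22), Pdhb (-0.28) and Mpc1 (-0.41). In VHL null against wild type cells they were Pdha1 (-0.43) and Pdhb (-0.28). In double null against wild type cells they were Pdha1 (-0.55), Pdhb (-0.61), Pdp1 (-0.66) and Mpc1 (-0.31), and against FIH null cells Pdha1 (-0.33), Pdhb (-0.33) and Pdp1 (-0.49). On the log2 scale Vhl signal fell by 1.74 with both genes deleted, and it fell by 2.15 in VHL null cells. Hif1an signal fell by 0.75 in FIH null cells, it fell by 1.15 with both genes deleted, and VHL null cells showed a fall too (log2 change -0.49, adjusted p = 0.00886). Of 8 fibroblast markers 6 were above the cutoff on all 8 arrays; Pdgfra and Thy1 were not. Defining markers of macrophages (Ptprc, Adgre1), endothelium (Pecam1, Cdh5), adipocytes (Adipoq), muscle (Myod1) and epithelium (Cdh1) were below it on every array. Of the 6 markers in each of these lists (4 measured for adipocytes), 3 of macrophages, 1 of muscle and 1 of epithelium were above it on every array, and 0 of endothelium and adipocytes were. The summed signal of 4 adipocyte markers was 436 to 500 (lowest and highest array) in wild type, 306 to 423 in FIH null, 281 to 358 in VHL null and 1817 to 2259 in double null arrays. That of 6 muscle markers ran from 1117 to 1330 on the other arrays and from 2084 to 2617 in double null arrays. The 6 epithelial markers summed to 2622 to 3086 in wild type, 2832 to 2856 in FIH null, 1549 to 1664 in VHL null and 1346 to 1605 in double null arrays. The 6 macrophage markers summed to 3181 to 3536, 3299 to 3312, 4069 to 4212 and 3143 to 3384 in the same order, and the 6 endothelial ones stayed between 500 and 1006. The part of these shifts in the results was not tested. In RNA from whole cultures, fewer cells of a type and less RNA per cell cannot be told apart.

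**Figure D1:**
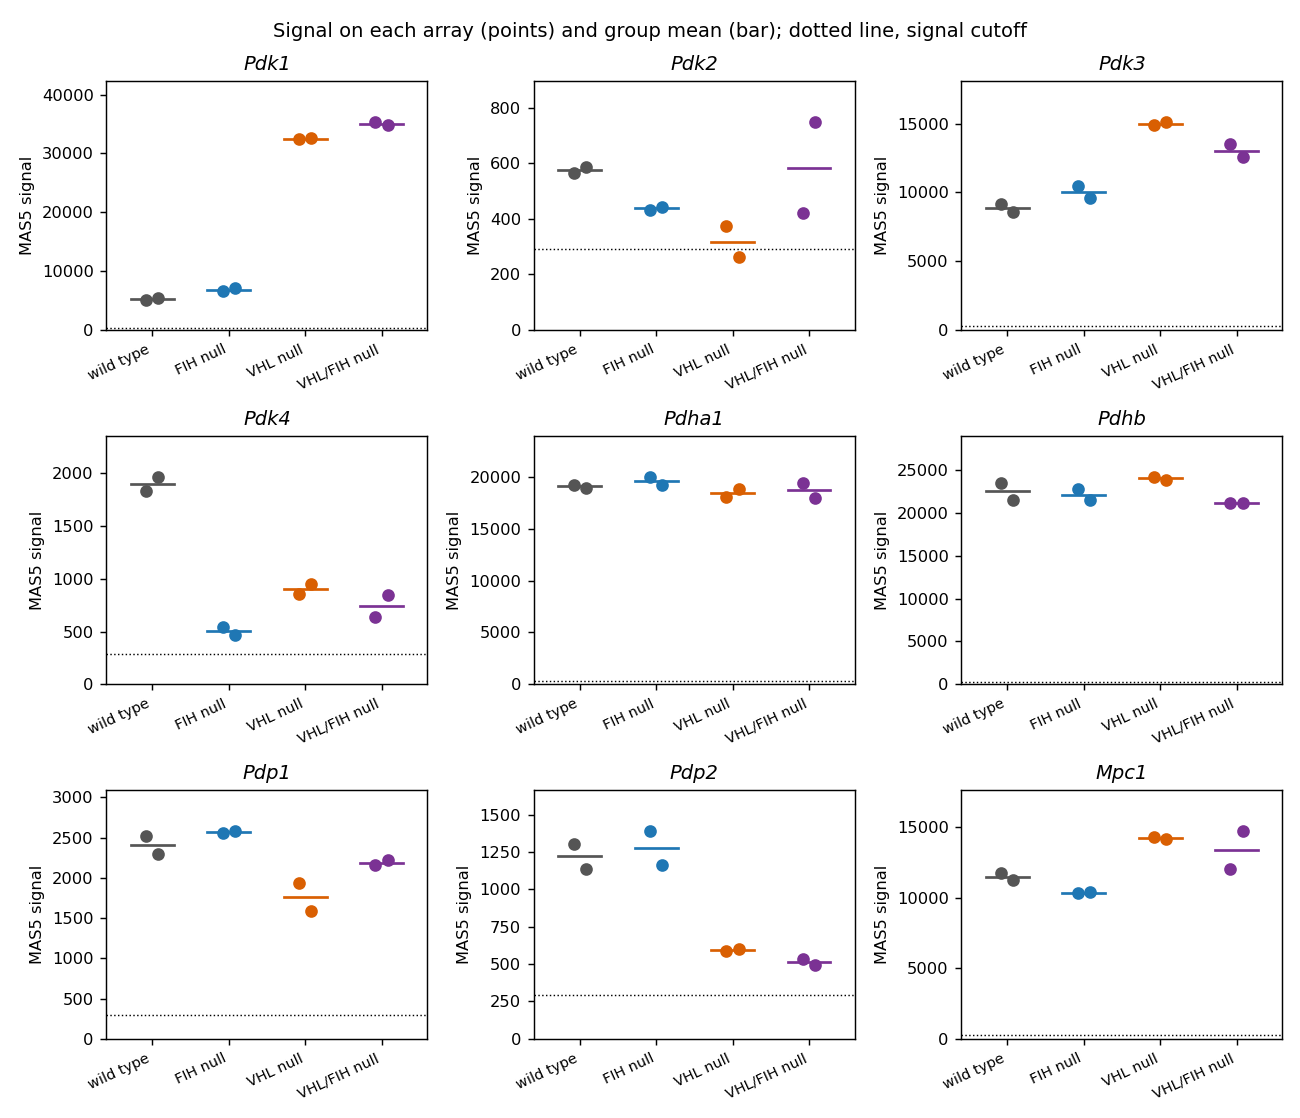
MAS5 signal (vertical axis, linear, from 0) of the brightest probe set (by mean log2 signal) of each of 9 genes in the 4 groups. Points are single arrays, bars are means of 2 arrays and the dotted line is the cutoff of 291.1. Pdk1 stands near 5185 in wild type cells and near 32524 in VHL null cells, while Pdk4 is highest in wild type cells.

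VHL null cells differed from wild type cells in opposite directions among the kinases. Pdk1 and Pdk3 rose, Pdk4 fell, and so did the weakly detected Pdk2 (adjusted p = 0.0412). Both phosphatase genes fell by their brightest probe set, while Pdha1 and Pdhb did not pass the test. Of 14 tested probe sets 5 were higher and 4 lower in VHL null than in wild type cells. Of all tested probe sets 35.3% passed in this comparison, 13.2% higher and 22.1% lower. By each gene's brightest probe set (the highest mean on the log2 scale), 3 of 9 genes were higher and 4 lower, with a median log2 change of -0.05 against -0.10 for all 11564 genes tested this way. Of all these genes 41.4% passed, 14.4% higher and 27.0% lower. The 9 probe sets that passed included 3 of Pdk1.

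Pdk1 read 4991 and 5378 on the wild type arrays (probe set 1423747_a_at), 6592.5 and 7036 in FIH null, 32464 and 32584 in VHL null and 35249 and 34899.8 in double null cells. No group's arrays overlapped those of another. The mean signal was 6.27 times that of wild type in VHL null cells (log2 change 2.65, SE 0.0624, adjusted p = 4.26e-09). It was 6.77 times that of wild type in double null cells (log2 change 2.76, adjusted p = 2.47e-09).

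A pair of weaker Pdk1 probe sets gave nearly the same change on VHL loss. Probe set 1423748_at read 2901 and 2869.8 in wild type and 17284 and 17911 in VHL null cells, a log2 change of 2.60. Probe set 1435836_at read 981 and 1083 in wild type and 6403 and 6790.4 in VHL null cells, a log2 change of 2.66. The 3 estimates lay between 2.60 and 2.66, with SE from 0.0624 to 0.0947. They share the RNA and the gene, so they are not replicates, but they differ in their probes. Under all 21 alternative settings run for it, the Pdk1 rise passed, with log2 changes from 2.27 to 2.73.

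Pdk1 also rose in FIH null cells, by much less. On 1423747_a_at the log2 change was 0.39 (SE 0.0624, adjusted p = 0.00465), on 1423748_at 0.56 (adjusted p = 0.00293) and on 1435836_at 0.41 (adjusted p = 0.036). The first of these calls ended with scaling to hybridization controls (log2 change 0.14, adjusted p = 0.181), without a variance trend (0.0647) and without FIH null replicate 2 (0.0629). The call on 1435836_at ended with that scaling too (0.16, adjusted p = 0.252).

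In double null cells Pdk1 was close to its VHL null level. The log2 difference of double null from VHL null cells was 0.11 on 1423747_a_at (95% interval -0.03 to 0.25, adjusted p = 0.221) and 0.07 on 1423748_at (-0.11 to 0.25, adjusted p = 0.572). On 1435836_at it was 0.30 (0.09 to 0.51) and passed (adjusted p = 0.0375), though not with scaling to hybridization controls (0.15, adjusted p = 0.292). The order of Pdk1 levels was therefore double null and VHL null, which 2 of 3 probe sets did not separate, then FIH null, then wild type.

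Pdk3, which lies on the X chromosome and encodes a kinase of high activity toward the complex, followed Pdk1 in direction with a smaller change. It read 9124 and 8570.2 in wild type, 10437 and 9615 in FIH null, 14920.5 and 15094 in VHL null and 13554 and 12552 in double null cells. The arrays of VHL null cells were the highest, those of double null cells came next, and none of the groups overlapped. Pdk3 was 1.70 times the wild type level in VHL null cells (log2 change 0.76, SE 0.0688, adjusted p = 2.7e-05) and 1.48 times in double null cells (0.56, adjusted p = 0.000146). The double null call ended with scaling to hybridization controls (0.04, adjusted p = 0.629), as did the rise of double null over FIH null cells (from 0.38 to 0.12, adjusted p = 0.181). The median change of the 692 tested probe sets on the X chromosome was 0.02 in VHL null cells, and Pdk3 less that median was 0.74.

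Pdk3 was the 1 kinase gene with a lower signal in double null than in VHL null cells that passed (log2 change -0.20, 95% interval -0.35 to -0.05, adjusted p = 0.0483). This call was narrow and was lost in 12 of 21 alternative settings, among them leaving out any one array other than double null replicate 1 (adjusted p from 0.0532 to 0.201). In FIH null cells the Pdk3 change of 0.18 did not pass (adjusted p = 0.2).

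Pdk4 went the other way and was the member with the largest fall. It read 1833 and 1965 in wild type, 542 and 467 in FIH null, 855 and 955 in VHL null and 639.9 and 844 in double null cells. All 6 null arrays were below both wild type arrays, and the FIH null arrays were the lowest. Wild type cells had 3.76 times the FIH null signal (log2 change -1.88, SE 0.169, adjusted p = 9.72e-05). They had 2.10 times the VHL null signal (-1.06, adjusted p = 0.000943) and 2.56 times the double null signal (-1.35, adjusted p = 0.000168). These 3 comparisons share the wild type arrays. Each of the 3 passed in all 20 alternative settings run for it.

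Pdk4 was 1.47 times higher in double null than in FIH null cells (log2 change 0.53, adjusted p = 0.0296). That call ended without FIH null replicate 2 (adjusted p = 0.158), without double null replicate 2 (0.188), with only the compared groups (0.0857), without a filter (0.0556) and with scaling to hybridization controls (0.213). Between double null and VHL null cells the change of -0.29 did not pass (95% interval -0.67 to 0.08, adjusted p = 0.226). The order of Pdk4 levels was wild type, then VHL null and double null, which were not separated, then FIH null.

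Pdk2, the most widely expressed kinase of the family in the body, was weakly detected here. It read 564 and 588 in wild type, 431 and 444 in FIH null, 373 and 263 in VHL null and 422 and 747.5 in double null cells, 1 of the VHL null arrays being below the cutoff. The double null arrays lay far apart and spanned the wild type values. Pdk2 fell in VHL null cells (log2 change -0.85, SE 0.286, adjusted p = 0.0412), a call kept in 11 of 20 alternative settings. It was lost without either wild type array (adjusted p = 0.118 and 0.132), without either FIH null array (0.0547 for each) or without VHL null replicate 2 (0.216). In double null cells the change from wild type was -0.03 (95% interval -0.67 to 0.60), and it ran from -0.44 to 0.37 as single arrays were left out. The difference of 0.81 between double null and VHL null cells did not pass (adjusted p = 0.0547), but it did without double null replicate 1 (1.21, adjusted p = 0.0138) and with adjustment over genes (adjusted p = 0.0473).

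**Figure D2:**
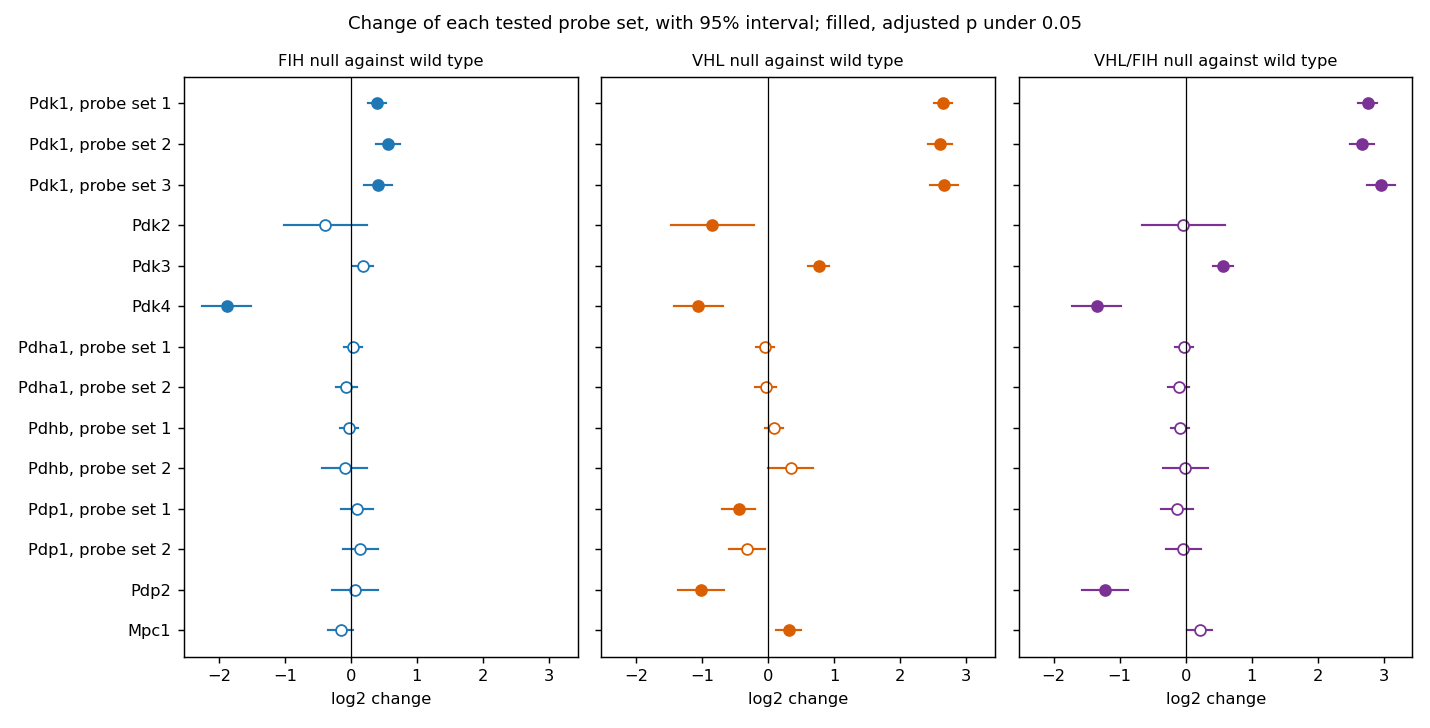
Log2 change against wild type (horizontal axis) of the 14 tested probe sets in the 3 null groups (a panel each), with 95% intervals from limma; filled points passed at an adjusted p under 0.05. Probe sets of a gene are numbered in the order of the deposited table. All 3 Pdk1 probe sets lie between 2.60 and 2.66 in VHL null cells, and both Pdha1 probe sets lie near 0 in each panel.

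The phosphatase genes, which oppose the kinases, were lower in VHL null than in wild type cells by their brightest probe set. Pdp2 read 1303 and 1139 in wild type, 1389 and 1165.5 in FIH null, 585.5 and 599.7 in VHL null and 536 and 493 in double null cells. The 4 arrays without VHL did not overlap the 4 arrays with it. Wild type signal was 2.06 times that of VHL null cells (log2 change -1.02, SE 0.157, adjusted p = 0.000735) and 2.37 times that of double null cells (-1.22, adjusted p = 0.000198). FIH null signal was 2.48 times that of double null cells (-1.28, adjusted p = 0.000116). Each of these 3 falls passed in all 20 alternative settings run for it.

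Pdp2 showed no detectable change between groups that differ in FIH alone by label. The log2 change was 0.06 in FIH null against wild type cells (95% interval -0.29 to 0.41, adjusted p = 0.879) and -0.20 in double null against VHL null cells (-0.55 to 0.15, adjusted p = 0.376).

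Pdp1, the calcium-stimulated phosphatase, changed less. On 1434228_at it read 2516 and 2294 in wild type, 2556 and 2577 in FIH null, 1942 and 1585 in VHL null and 2158 and 2216 in double null cells. The VHL null arrays were the lowest. Pdp1 fell in VHL null cells by 0.45 on the log2 scale (SE 0.111, adjusted p = 0.0101), a call that ended with quantile normalization (adjusted p = 0.0654), without wild type replicate 1 (0.0729) and without VHL null replicate 2 (0.0787). The other Pdp1 probe set, 1438201_at, changed by -0.33 and did not pass (adjusted p = 0.0598). In double null cells the change from wild type on 1434228_at was -0.13 (adjusted p = 0.382), and the difference of 0.32 between double null and VHL null cells was just short of the threshold (adjusted p = 0.0549). Between double null and FIH null cells Pdp1 did not pass on 1434228_at (-0.23, adjusted p = 0.13) or on 1438201_at (-0.18, adjusted p = 0.27).

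The genes of the dehydrogenase itself stayed within narrow bounds. Pdha1, whose alpha subunit carries the phosphorylation sites, read from 17919 to 19989.5 over the 8 arrays on 1418560_at and from 11991 to 13987 on 1449137_at. Its change in VHL null cells was -0.05 on the first (95% interval -0.19 to 0.08, adjusted p = 0.537) and -0.04 on the second (-0.20 to 0.12, adjusted p = 0.736). None of its 12 tests over 2 probe sets and 6 comparisons passed. With scaling to hybridization controls, which lowers all genes, its VHL null change was -0.43 and passed (adjusted p = 0.000101).

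Pdhb, the beta subunit gene, read 23532 and 21532 in wild type, 22767 and 21516 in FIH null, 24190.1 and 23878 in VHL null and 21143 and 21177 in double null cells. Its change in VHL null cells was 0.09 (95% interval -0.04 to 0.23, adjusted p = 0.262). The mean of its probe sets gave 0.22, which passed (adjusted p = 0.0409), and scaling to hybridization controls turned it to -0.28. Between double null and VHL null cells it was lower by a small amount that passed (log2 change -0.18, adjusted p = 0.0458), a call kept in 9 of 21 alternative settings. The median change of the 732 tested probe sets on chromosome 14, where Pdhb lies, was -0.14 in this comparison, and Pdhb less that median was -0.05. The call ended without any one of the FIH null, VHL null or double null arrays (adjusted p from 0.0669 to 0.166). A second probe set, 1448214_at, gave -0.34 in that comparison and did not pass (adjusted p = 0.119).

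Mpc1 encodes a subunit of the carrier through which pyruvate crosses the inner mitochondrial membrane. It read 11743 and 11229.6 in wild type, 10336 and 10357 in FIH null, 14299.8 and 14133 in VHL null and 12009 and 14679 in double null cells. Both wild type and both FIH null arrays were below the VHL null arrays, and the double null arrays lay far apart. Mpc1 rose by 0.31 in VHL null against wild type cells (SE 0.0851, adjusted p = 0.0176). In double null against FIH null cells it rose by 0.36 (adjusted p = 0.00713). Scaling to hybridization controls turned the first rise to -0.07 (adjusted p = 0.562). It did not pass without wild type replicate 2 (0.0849), VHL null replicate 1 (0.082) or VHL null replicate 2 (0.0683), or without a variance trend (0.0781). The second became 0.10 with that scaling (adjusted p = 0.44). The double null change from wild type, 0.21, did not pass (adjusted p = 0.0824), and it passed without double null replicate 1 (0.35, adjusted p = 0.00376).

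In FIH null against wild type cells, of 14 probe sets 3 were higher, all of Pdk1, and 1 was lower, that of Pdk4, and of all tested probe sets 4.33% passed in this comparison, 1.16% higher and 3.17% lower. Without FIH null replicate 2 the count of 4 became 2. By gene, 1 of 9 was higher and 1 lower (1.39% and 3.89% of all genes), with a median log2 change of 0.04 over the 9. In double null against wild type cells 4 probe sets were higher, those of Pdk1 and Pdk3, and 2 were lower, those of Pdk4 and Pdp2, where 34.1% of all probe sets passed, 14.1% higher and 20.0% lower. With scaling to hybridization controls, which lowers every change in this comparison by 0.52, the count of 6 became 12. Pdk1 stayed higher, the Pdk3 rise ended, and all added calls were falls. The share of all probe sets that passed under that scaling was not counted.

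Between double null and VHL null cells 3 probe sets passed, where 29.8% of all probe sets did: that of Pdk1 named above was higher, and those of Pdk3 and Pdhb were lower. The count of 3 became 1 without VHL null replicate 1 and also without either FIH null array, and 0 without VHL null replicate 2. Double null against FIH null cells gave 6 higher and 1 lower probe set, where 38.3% of all probe sets passed, 16.8% higher and 21.5% lower. The 6 were those of Pdk1, Pdk3, Pdk4 and Mpc1, and the lower one was that of Pdp2.

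The change on VHL loss can be set side by side in cells with and without FIH, a pair of comparisons that share no array. Pdk1 changed by 2.65 with FIH present and by 2.36 with FIH deleted. Pdp2 changed by -1.02 and -1.28. Mpc1 changed by 0.31 and 0.36. Pdk3 changed by 0.76 and 0.38, and Pdk4 by -1.06 and 0.53. The weakly detected Pdk2 changed by -0.85 and 0.35, and the second change did not pass (adjusted p = 0.367).

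The difference between the 2 changes, the interaction, passed for 3 of 14 probe sets, 1 higher and 2 lower, where 15.7% of all probe sets passed, 8.96% higher and 6.76% lower. For Pdk4 it was 1.59 (SE 0.239, adjusted p = 0.00169), and it passed in all 19 alternative settings run for it. For Pdk3 it was -0.38 (SE 0.0973, adjusted p = 0.0243), which did not pass with scaling to hybridization controls (0.0901), without a variance trend (0.0986) or without wild type replicate 2, FIH null replicate 1, either VHL null array or double null replicate 2 (adjusted p from 0.0605 to 0.111). For Pdk1 it passed on 1423748_at (-0.50, adjusted p = 0.017) and not on 1423747_a_at (-0.28, adjusted p = 0.0534) or 1435836_at (-0.12, adjusted p = 0.602). With scaling to hybridization controls it did not pass on 1423748_at (adjusted p = 0.0541). For Pdp2 it was -0.26 (95% interval -0.75 to 0.23, adjusted p = 0.471). The count of 3 became 1 without VHL null replicate 2.

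**Figure D3:**
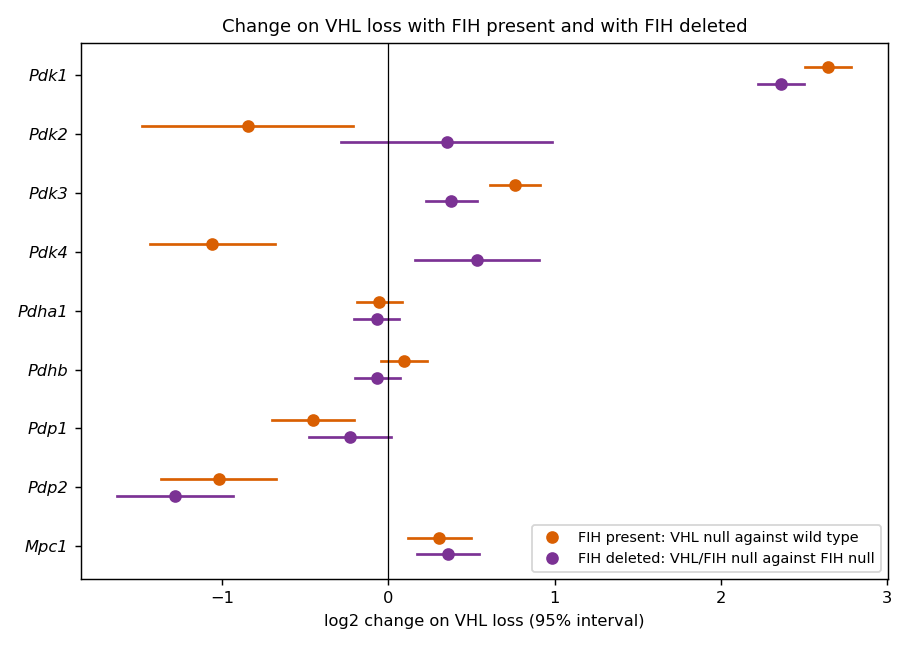
Log2 change on VHL loss (horizontal axis, with 95% intervals from limma) of 9 genes by their brightest probe set, with FIH present (VHL null against wild type) and with FIH deleted (VHL/FIH null against FIH null). Pdk4 lies at -1.06 in the first and 0.53 in the second, and Pdp2 lies below -1 in both.

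The rest of the pathway was read from 55 genes in 5 lists, of which 46 were tested by 1 probe set each. In VHL null cells 9 of the 46 were higher and 14 lower (41.4% of all genes passed, 14.4% higher and 27.0% lower), and their median change of -0.16 stood beside -0.10 for all genes. In FIH null cells 2 were higher and 3 lower (5.28% of all genes passed, 1.39% higher and 3.89% lower). Between double null and VHL null cells 10 were higher and 8 lower (35.0% of all genes passed, 20.7% higher and 14.3% lower). With scaling to hybridization controls 4 were higher and 30 lower in VHL null cells, and 1 and 20 in FIH null cells. Between double null and VHL null cells that scaling gave 6 higher and 12 lower. The share of all genes that passed under it was not counted. Both the 10 and the 6 include Epas1, which met the signal filter only through the double null arrays, so its call is no support.

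Of 11 tested genes for other subunits and cofactors of the complex, 1 rose and 1 fell in VHL null cells (median 0.08), where 14.4% of all genes were higher and 27.0% lower. The core acyltransferase gene Dlat read 7336 and 7394 in wild type and 6653 and 6083 in VHL null cells, a change of -0.21 that did not pass. With scaling to hybridization controls the Dlat change was -0.59 and passed (adjusted p = 0.00034). Slc19a2, a thiamine transporter whose substrate becomes the cofactor of the dehydrogenase, rose from 5319 ± 189 to 7327 ± 32.8 (log2 change 0.46, adjusted p = 0.00261). It was higher again in double null cells, by 0.31 over VHL null cells (adjusted p = 0.0235). Scaling to hybridization controls ended both calls (0.08, adjusted p = 0.432, and 0.16, adjusted p = 0.196). Nfu1, which delivers iron-sulfur clusters for lipoate synthesis, fell by 0.34 (adjusted p = 0.00336).

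Of the genes linked to lipoate synthesis, Lias and Glrx5 were lower in double null than in VHL null cells. Nfu1 (log2 change 0.15), Lipt1 (0.19) and Lipt2 (-0.04) did not pass in that comparison. Lias, lipoyl synthase, read 17466 ± 1051 in VHL null cells, and 13089.9 ± 384 with both genes deleted (log2 change -0.41, adjusted p = 0.00168). Glrx5, a carrier in iron-sulfur cluster assembly, read 35950.4 ± 791 and 28079 ± 1699 (-0.36, adjusted p = 0.00124). Their interactions passed too, at -0.38 for Lias (adjusted p = 0.031) and -0.34 for Glrx5 (adjusted p = 0.0192), though neither did with scaling to hybridization controls (0.0948 and 0.0994).

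Of 7 tested genes of the sister dehydrogenase complexes, which are built on the same plan, 2 fell and 0 rose in VHL null cells (27.0% of all genes were lower and 14.4% higher). Ogdh, a subunit of the 2-oxoglutarate dehydrogenase, fell from 12163 ± 320.04 to 9032 ± 53.0 (log2 change -0.43, adjusted p = 0.000339). Bckdk, the kinase of the branched-chain complex and a relative of the Pdk family, fell by 0.35 (adjusted p = 0.00453). Bckdk was higher in double null than in VHL null cells by 0.47 (adjusted p = 0.00101), where Pdk3 was lower. The 2-oxoglutarate complex gene Dlst (-0.21, adjusted p = 0.0514) and the branched-chain complex genes Dbt (-0.36, adjusted p = 0.061) and Bckdha (-0.29, adjusted p = 0.277) did not pass in VHL null cells. With scaling to hybridization controls, which lowers all genes, all 7 were lower. Dlst then read -0.59 (adjusted p = 4.4e-05), Dbt -0.74 (adjusted p = 0.00121) and Bckdha -0.67 (adjusted p = 0.0133). Bckdhb, a subunit gene of the branched-chain complex, read 2542 ± 279 in VHL null cells, and 4966 ± 63.9 with both genes deleted (log2 change 0.97, adjusted p = 0.000296). The interaction passed for Bckdhb (1.24, adjusted p = 0.00131), Bckdk (0.66, adjusted p = 0.00239) and Ogdh (-0.29, adjusted p = 0.0378), the last not with scaling to hybridization controls (0.266).

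All 10 tested genes of the other fates and sources of pyruvate passed in VHL null cells, 5 higher and 5 lower (14.4% and 27.0% of all genes). Scaling to hybridization controls ended 2 of the rises, taking Pkm (pyruvate kinase) from 0.39 to 0.01 (adjusted p = 0.922) and the monocarboxylate transporter gene Slc16a1 from 0.24 to -0.14 (adjusted p = 0.0749). Slc16a3, which exports lactate, rose from 4368 ± 0.35 to 16220.1 ± 477 (log2 change 1.89, adjusted p = 1.83e-06). Me2, a mitochondrial malic enzyme that makes pyruvate from malate, rose from 10496 ± 741 to 19890.5 ± 443 (0.92, adjusted p = 8.65e-06). Ldhb, the lactate dehydrogenase subunit that favours lactate use, fell from 6898 ± 223 to 3992 ± 43.1 (-0.79, adjusted p = 2.73e-05). Gpt2, which exchanges pyruvate and alanine in mitochondria, fell from 3255 ± 55.4 to 1475 ± 89.9 (-1.13, adjusted p = 8.07e-05). Pcx, which carboxylates pyruvate to oxaloacetate, fell by 0.71 (adjusted p = 0.00486).

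Ldhb shared with Pdk4 a lower level in every null group. It read 7055 and 6740.0 in wild type and 3576 and 3409 in FIH null cells (log2 change -0.98, adjusted p = 2.21e-05), and its interaction was 1.002 (adjusted p = 0.000133). Deleting FIH on top of VHL brought Me1, the cytosolic malic enzyme gene, from 11958 ± 173 to 21305 ± 415 (0.83, adjusted p = 2.83e-06). In the same comparison Pcx rose by 0.65 (adjusted p = 0.00956) and Gpt2 by 0.54 (adjusted p = 0.00709), while Me2 fell by 0.28 (adjusted p = 0.0128). The interaction passed for these genes except Gpt2, at 0.60 for Me1 (adjusted p = 0.000713), 0.72 for Pcx (adjusted p = 0.0464) and -0.53 for Me2 (adjusted p = 0.00587).

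Of 7 tested genes that use or export acetyl-CoA, 4 fell and 0 rose in VHL null cells (median -0.37), where 27.0% of all genes were lower and 14.4% higher. The 4 were the citrate carrier gene Slc25a1 (log2 change -0.76), acetyl-CoA carboxylase Acaca (-0.79), ATP citrate lyase Acly (-0.37) and the carnitine transferase Crat (-0.47). With scaling to hybridization controls all 7 were lower. Acaca and Acly fell further in double null cells, by 0.35 (adjusted p = 0.0139) and 0.30 (adjusted p = 0.00418) against VHL null cells. Slc25a1 rose there by 0.29 (adjusted p = 0.0088), and Acat1, which makes and splits acetoacetyl-CoA in mitochondria, rose by 0.25 (adjusted p = 0.00499). The interaction passed for Acaca (-0.42, adjusted p = 0.0455) and Acly (-0.34, adjusted p = 0.0253). With scaling to hybridization controls the rises of Slc25a1 (0.15, adjusted p = 0.203) and Acat1 (0.11, adjusted p = 0.231) and both interactions (adjusted p = 0.15 for Acaca and 0.097 for Acly) did not pass.

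Of 11 tested genes for factors known to act on Pdk genes, 3 rose and 2 fell in VHL null cells (14.4% and 27.0% of all genes). The glucocorticoid receptor gene Nr3c1 rose from 9509 ± 785 to 13790.0 ± 409 (log2 change 0.54, adjusted p = 0.00027), and was lower again in double null cells at 9032 ± 171. Foxo3 (0.78) and Myc (0.55) rose, and Arnt, the HIF beta subunit gene, fell by 0.46 (adjusted p = 0.00259). Scaling to hybridization controls ended the rises of Nr3c1 (0.16, adjusted p = 0.112) and Myc (0.17, adjusted p = 0.0959). Hif1a did not pass against wild type in VHL null cells (0.13, adjusted p = 0.149). With scaling to hybridization controls that change was -0.25 and passed (adjusted p = 0.0133). Hif1a was lower in double null than in VHL null cells (log2 change -0.30), a call kept with that scaling (-0.45, adjusted p = 0.000949). Epas1, which encodes HIF-2 alpha, was below the cutoff on all arrays but the double null ones, where it read 660.5 and 494. The interaction passed for Nr3c1 (-0.77, adjusted p = 0.000614). No test of Epas1 is described here, since it met the signal filter only through the double null arrays, where it was high. It is still counted among the tested genes of the lists.

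**Figure D4:**
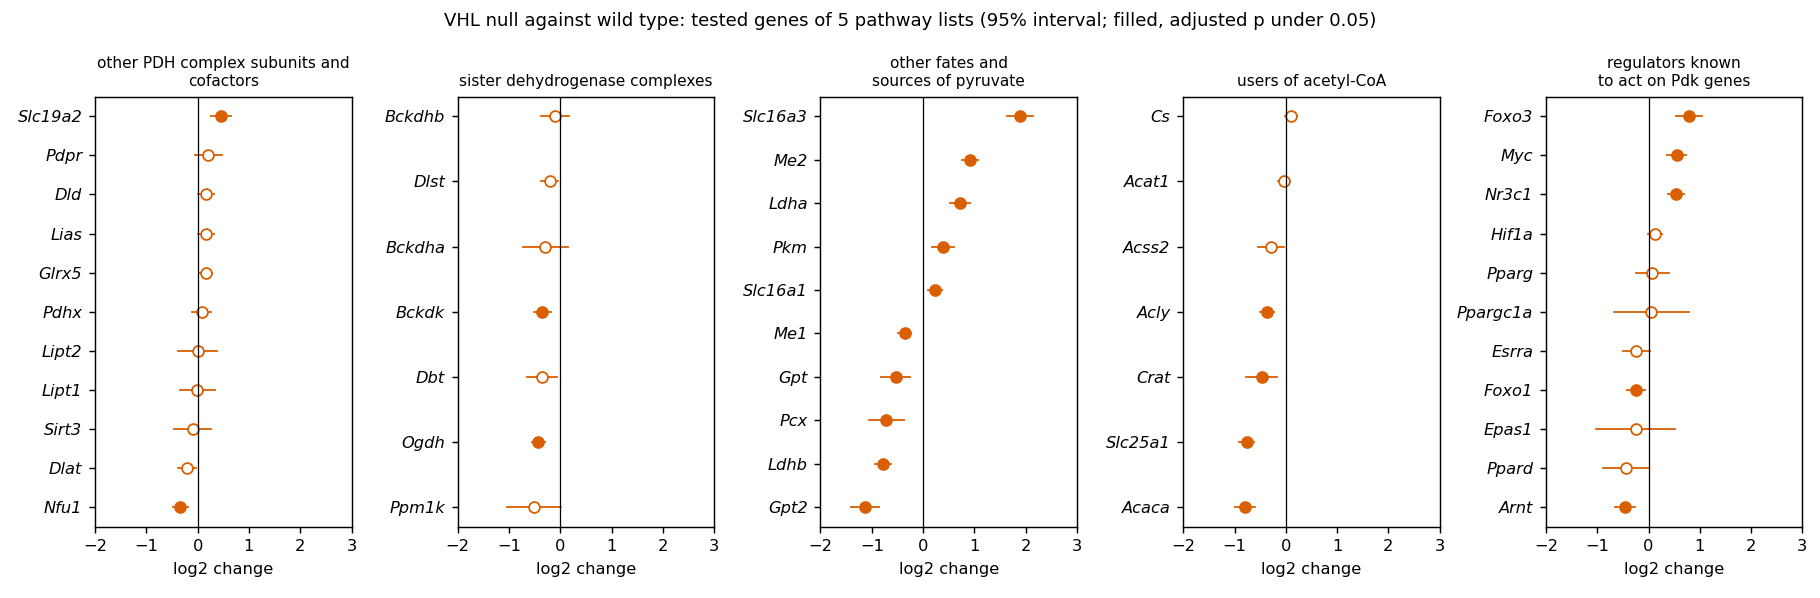
Log2 change of VHL null against wild type cells (horizontal axis, with 95% intervals from limma) of the 46 tested genes of 5 pathway lists; filled points passed at an adjusted p under 0.05. Slc16a3 lies at 1.89 and Gpt2 at -1.13 in the list of other fates and sources of pyruvate, where all 10 points are filled.

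The genes whose log2 signals were most like those of Pdk1 over the 8 arrays were Ak4 (r = 0.998), Mxi1 (0.998), Egln1 (0.998), Pfkp (0.996) and Celf2 (0.995). Ak4 read 1346, 1954, 13857 and 15821 on average in wild type, FIH null, VHL null and double null cells. The genes most like Pdk4 were Zfp618 (r = 0.985), Sdc1 (0.983), Pawr (0.98), Trib2 (0.963) and Zfp647 (0.957), and those most like Pdp2 were Trak2 (0.997), Kyat3 (0.995), Ppp6r3 (0.995), Gnpda1 (0.995) and Klc4 (0.994). For Pdk2 the nearest were Eri1 (0.964), Ubxn2b (0.945), Nme4 (0.934), Tmub2 (0.928) and Hykk (0.925). These are descriptions over 8 arrays in 4 pairs, and the arrays are shared by all genes.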

How the data were processed

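Total RNA of 8 samples was hybridized to Affymetrix mouse arrays by the maker's protocol, per the labels. The deposited table gives each probe set's signal as a linear intensity. The submitters' processing notes name MAS5, with the version not given in the sources used here. The trimmed mean was 2500.01 on every array (2% left off each end), so nothing was rescaled. Genes came from the platform annotation, which gave 34945 of the 45101 probe sets 1 symbol, 932 several and 9160 none (64 were controls), with symbols updated through Entrez numbers.

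Log2(signal + 16) was fitted with limma 3.58.1 in R 4.3.3 (4 group means, eBayes with a trend, residual degrees of freedom 4, prior 6.42), two-sided, with Benjamini-Hochberg adjustment over 24523 probe sets per comparison. The code was tested on simulated data. The labels name biological replicates but not separate animals or cultures, so the spread that the p-values rest on may be technical, and 2 arrays a group limit the precision. No 2 arrays were identical, and replicate numbers did not pair samples (r of replicate differences from -0.0157 to 0.0318 over 6 pairs of groups).

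The members and gene lists were chosen with earlier results of these data known. Named were all member probe sets, Hif1an and Vhl; from each list up to 4 genes with the smallest p on VHL loss in FIH-proficient cells and up to 4 on FIH loss in VHL null cells, and those with an interaction; and the 5 genes most like Pdk1 and like each other member spanning over 1 on the log2 scale. Ppargc1a was named after its values were seen. Other settings tried were pseudocounts of 1 and 64, the filter (none, or the 75th percentile), quantile normalization, median centring, scaling to 18 hybridization control probe sets, array weights, no variance trend, fits of only the compared groups, 1 probe set or the mean of probe sets per gene, the replicate block, each array left out and, chosen after seeing the data, centring per chromosome and the control scaling for list genes.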

Additional observations from a re-analysis of the deposited data

Results flagged for a closer look

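The change on VHL loss differed between cells with and without FIH for 3 probe sets, by the test of the interaction in limma. For Pdk4 the difference was 1.59 on the log2 scale: VHL null arrays were both below the wild type arrays, and double null arrays were both above the FIH null arrays. For Pdk3 it was -0.38, with a rise in both settings. For Pdk1 it was -0.50 on probe set 1423748_at, while the other 2 tested probe sets of Pdk1 did not pass. Groups of 2 arrays are too small for a test of outlying samples.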

How the results depend on the processing

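Of 125 counts of called members under alternative settings 108 stayed within 1.5 times the reported count. The replicate block gave 4, 10, 6, 4, 7 and 4 called probe sets in the order FIH null, VHL null and double null against wild type, double null against VHL null and FIH null, and the interaction. It changed no call of the 22 that passed, and brought Pdp1 in double null against VHL null cells (adjusted p = 0.0489) and the Pdk1 interaction (0.0378) under the threshold. Without a variance trend 1 probe set was called in FIH null against wild type cells, 0 in double null against VHL null cells and 1 in the interaction. In double null against VHL null cells 0 were called without a filter, with quantile normalization and with array weights, and 1 with only the compared groups, while adjusting over genes gave 4 genes with 1 probe set or with the mean of probe sets. Scaling to hybridization controls gave 12 in double null against wild type cells, where all added calls were falls, and 1 in the interaction. Leaving out 1 array gave 2 to 4, 6 to 10, 6 to 7, 0 to 3, 6 to 7 and 1 to 4 in the order above. The cause of these shifts was not tested, except that scaling moves all genes one way.

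Directions turned as follows, almost all in values that had not passed. With scaling to hybridization controls they were, in FIH null cells, Pdk3 (-0.08), Pdha1 (-0.22), Pdp1 (-0.16) and Pdp2 (-0.20), in VHL null cells Pdhb (-0.28) and Mpc1 (-0.07, a call), in double null cells Mpc1 (-0.31), in double null against VHL null cells Pdk1 (-0.04) and Pdha1 (-0.12), and the Pdha1 interaction (0.10). With median centring they were Pdhb in FIH null (0.07), Pdha1 in VHL null (0.03) and double null (0.04) and Pdk2 in double null cells (0.03), all against wild type, and the Mpc1 interaction (-0.05). With quantile normalization they were Pdhb in VHL null (-0.0041) and Pdk2 in double null cells (0.04) and the Pdha1 interaction (0.01). With the mean of probe sets they were Pdha1 in FIH null (-0.02) and in double null against VHL null cells (-0.02) and Pdhb in double null against FIH null cells (0.01). Leaving out 1 array turned Pdhb (-0.09 to 0.04) and Pdp2 (-0.06 to 0.19) in FIH null cells, Pdk2 (-0.44 to 0.37) and Pdha1 (-0.09 to 0.03) in double null against wild type cells, Pdha1 (-0.04 to 0.08) and Mpc1 (-0.24 to 0.05) in double null against VHL null cells, Pdk2 in double null against FIH null cells (-0.05 to 0.75), and the interactions of Pdha1 (-0.08 to 0.04) and Mpc1 (-0.09 to 0.20). Centring per chromosome turned no call, but took the Pdhb difference of double null from VHL null cells to -0.05.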

Other observations

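Ppargc1a, a coactivator gene whose protein is known to act on Pdk4, read 462 and 506 in wild type, 149 and 89.5 in FIH null, 452 and 559.7 in VHL null and 346 and 229 in double null cells. Both FIH null arrays were below the wild type arrays and below the cutoff. Ppargc1a was chosen after its values were seen, so its p-value is not given. Of the 11 tested genes for factors known to act on Pdk genes, 2 were called lower in FIH null cells, and the other was Myc (log2 change -0.45).

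The weak Pdk1 probe set 1434974_at, which was not tested, read 101 and 119 in wild type, 204 and 118 in FIH null, 296 and 289 in VHL null and 51.8 and 12.4 in double null cells. All but 1 of these values lie below the cutoff of 291.1, so they have no useful order.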
